A study of Mus musculus with 42 samples.

Results

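Embryoid bodies (EBs) of AMPK DKO cells in low glucose were compared between day 4 and day 2 of culture, in both lines that lack AMPK, named K1 and K3. The comparison uses 4 of the 42 libraries of the series, 1 per line and day, and each day 4 library was paired with the day 2 library of its own line. EBs are aggregates of mouse embryonic stem cells (mESC) that begin to differentiate once leukaemia inhibitory factor (LIF), which holds mESC undifferentiated, is taken away. All lines were of C57Bl/6 background. They were kept with LIF on irradiated feeder cells, passaged without feeders before EBs were formed, and then cultured without LIF in medium with 2.5 mM glucose (LG). The DKO genotype removes both catalytic subunits of AMPK, the kinase that responds to low cellular energy. The 2 wild-type (WT) lines, W1 and W2, in the same medium and on the same days served to show where the change in DKO lines differed. They also shared the estimate of the spread, so each DKO standard error and p-value rests in part on the WT lines. Each line was the unit of replication, n = 2 lines per genotype. Nothing in the labels says whether more than 1 culture of a line was taken, so p-values here cover no more than the spread among the lines and libraries at hand.

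The K1 day 4 heading stood over 2 columns, and the one used was chosen by its Txnip level. Txnip, which encodes an arrestin-like protein that high glucose induces, was at 0.282 RPKM (reads per kilobase of transcript, scaled to the mapped reads of the library) in K1 and 0.11 RPKM in K3 on day 2. On day 4 it was at 0.183 RPKM in the K1 library used and 0.663 RPKM in K3, the highest of the 4, whereas the K1 day 4 library left out had 96.3 RPKM. These values made the choice and are no result. The WT lines were treated in the same way, which left 5 WT libraries with at most 0.338 RPKM of Txnip. Prkaa2, a catalytic AMPK subunit, was at 0.041 and 0.187 RPKM in K1 and K3 on day 2 and at 0.055 and 0.233 RPKM on day 4, against 1.76 RPKM in W1 and 1.32 RPKM in W2 on day 2. Prkaa1, the other catalytic subunit, was at 5.38 RPKM in K1 and 4.01 RPKM in K3 on day 2 and at 4.66 and 4.48 RPKM on day 4. Which exons the deletion removes is not given in the sources used here, so reads of Prkaa1 outside them check nothing. The Y-linked gene Ddx3y, which separates the lines, kept its level within each line, 1.19 and 1.6 RPKM in K1 and 12.9 and 10.8 RPKM in K3. The K3 day 2 library stood apart in structural RNAs. Rn45s, the ribosomal RNA precursor, was at 4366.9 RPKM there, or 2.55% of mapped reads, and between 314 and 764 RPKM in the other 3, and Rmrp and Rpph1, the RNA parts of the nucleases MRP and P, were also highest there, at 97 and 35 RPKM. These 3 RNAs were chosen after their values were seen. The 4 libraries held 15650000 to 18900000 mapped reads, so a level of 1 RPKM over 1 kb of transcript rested on 15.7 to 18.9 reads.

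When LIF is withdrawn, mESC leave the naive state, which resembles the epiblast before implantation and is held by factors such as Klf2, Esrrb and Tfcp2l1. They pass through a formative state marked by Fgf5, Pou3f1 and Dnmt3b, in which Pou5f1 stays on and lineages become open. From there cells enter the primitive streak, the source of mesoderm and definitive endoderm, under Nodal, Wnt and BMP signals, while an outer layer of primitive endoderm makes the basement membrane and the visceral endoderm. AMPK also acts on the lysosome, in part through Tfeb and Tfe3, transcription factors that bind the letters CACGTG in promoters of lysosomal genes, and the series title links AMPK, Tfeb and lysosomes to lineage choice. The comparison therefore asks which of these programmes changed between day 2 and day 4 in cells that have no AMPK.

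Of 12500 genes tested with limma on log2(RPKM + 1), 842 were higher on day 4 (6.74%) and 367 were lower (2.94%) at a Benjamini-Hochberg adjusted p under 0.05, in all 9.67%. An unadjusted p under 0.05 was reached by 31.6%. A change is given as the log2 difference of RPKM + 1 with its standard error (SE), which understates the change of genes with low values. The change was at least 1 in 212 of the genes called higher, and -1 or less in 92 of those called lower. All 1209 called genes moved the same way in K1 and K3, which the test requires and which is no separate result. Across the genes tested, the changes in K1 and K3 had a Pearson r of 0.550 as a description, since genes are not independent. In 361 genes the changes of the lines were more than 1 apart, 222 with the larger value in K1 and 139 with the larger value in K3. The median change of all genes was 0.10 in K1 and 0.13 in K3. The share of all genes with the larger change in either line was not counted. Counts of list members with the larger change in 1 line therefore have no such share beside them and are a description. The median gene changed by 0.11 on the RPKM scale and by -0.02 after median-of-ratios scaling, which gave 495 higher and 653 lower calls, so small changes depend on the scale. The calls also rested on the choice of libraries: 360 genes passed without line K1 and 0 without line K3, where 2477 still had an unadjusted p under 0.05. In a fit that ignored which line a library came from, 168 genes passed. With the K1 library that had been left out in place of the one used, 42 genes passed, among them 35 of the 1209. In that fit 1190 of the 1209 kept their direction, but the other DKO libraries are the same in both fits. In bulk samples, fewer cells of a type and less RNA per cell cannot be told apart.

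**Figure D1:**
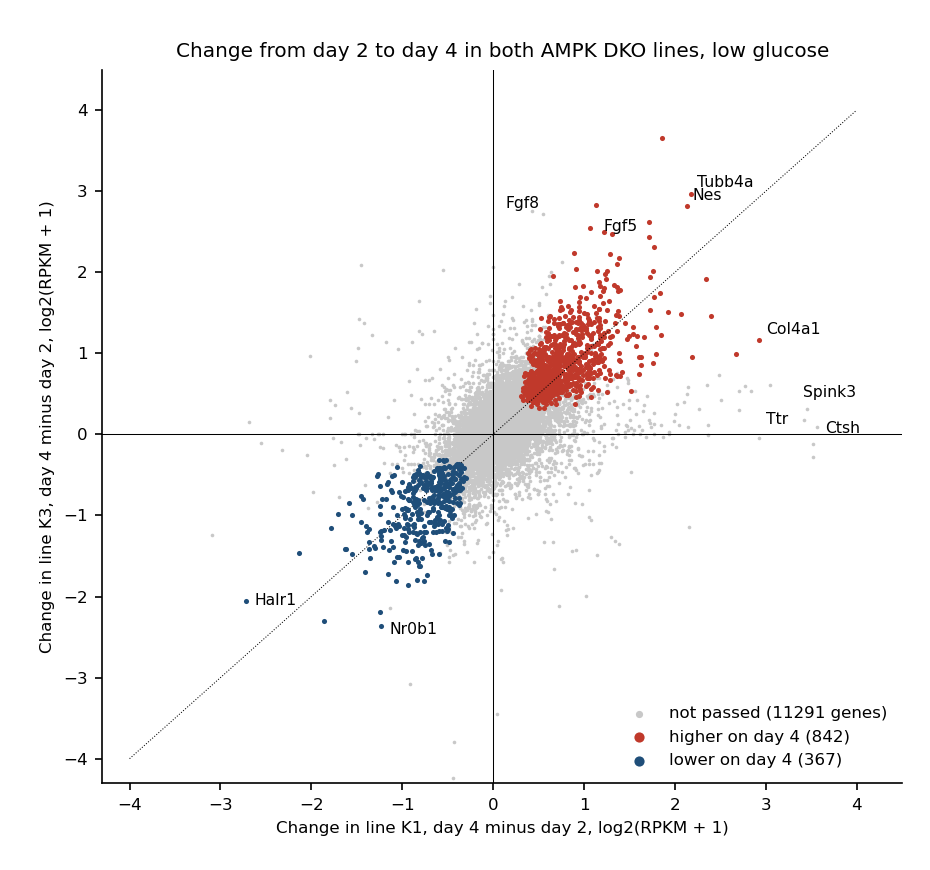
Change of each of 12500 genes between day 2 and day 4 of low-glucose EB culture in line K1 (x axis) and line K3 (y axis), both as log2(RPKM + 1), with the 842 genes called higher in red, the 367 called lower in blue and the identity as a dotted line. Called genes lie off both axes in the upper right and lower left, which the test requires. Spink3, Ttr and Ctsh lie far to the right with a change near 0 in K3.

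Among annotated genes averaging at least 1 RPKM, the 12 largest rises included genes of the cytoskeleton, cell surface and matrix. Tubb4a, a beta-tubulin (chromosome 17, 57080066 to 57087782, mm10), was at 1.39 RPKM in K1 and 1.19 RPKM in K3 on day 2 and at 9.85 and 16.1 RPKM on day 4. Its change was 2.57 ± 0.21 (adjusted p = 0.0151), and both day 4 values lay far above both day 2 values. Nes, which encodes nestin, an intermediate filament of neural progenitors (chromosome 3, 87971093 to 87980451), was at 0.799 RPKM in K1 and 0.991 RPKM in K3 on day 2 and at 6.85 and 13.1 RPKM on day 4, a change of 2.47 ± 0.19 (adjusted p = 0.0151). Fgf5, the ligand that marks the formative epiblast (chromosome 5, 98254184 to 98277033), was at 7.8 RPKM in K1 and 6.74 RPKM in K3 on day 2 and at 28 and 40.8 RPKM on day 4, a change of 2.08 ± 0.18 (adjusted p = 0.0151). In all 3 genes K3 had the higher value on day 4. Cyr61, a secreted matrix protein and target of the Hippo pathway, changed by 2.13 ± 0.21, and Amot, a scaffold of that pathway, by 1.93 ± 0.26. Tagln, an actin-binding protein of contractile cells, changed by 1.98 ± 0.38, Myl9, a myosin light chain, by 1.89 ± 0.19, and the protocadherin Pcdh1 by 2.17 ± 0.21. Sema6a, a guidance molecule, changed by 1.86 ± 0.28, Prtg, an immunoglobulin-type receptor, by 1.81 ± 0.34, and Mogat2, an enzyme of triglyceride synthesis, by 1.84 ± 0.28. K3 gave most of the change in Tagln, Sema6a and Prtg, at 2.83, 2.50 and 2.55 against 1.13, 1.22 and 1.07 in K1. Col4a1, the basement membrane collagen, completed the 12 with 2.05 ± 0.42, but most of it came from K1, as described with the endoderm genes.

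By the same rule, the 12 largest falls included genes of undifferentiated cells. Nr0b1, an orphan nuclear receptor of the naive state (chromosome X, 86191775 to 86195944), was at 62.8 RPKM in K1 and 34.2 RPKM in K3 on day 2 and at 26.2 and 5.85 RPKM on day 4, a change of -1.79 ± 0.26 (adjusted p = 0.0199). Halr1, a non-coding RNA beside the Hoxa cluster (chromosome 6, 52102949 to 52113684), was at 28.5 RPKM in K1 and 3.54 RPKM in K3 on day 2 and at 3.46 and 0.096 RPKM on day 4. It changed by -2.39 ± 0.23, the steepest of the 12, yet its day 4 level in K1 was close to its day 2 level in K3. Zfp57, which guards methylation at imprinted genes, was at 164 RPKM in K1 and 101 RPKM in K3 on day 2 and at 78 and 28 RPKM on day 4, a change of -1.44 ± 0.17. Morc1, a repressor of transposons in germ cells, changed by -1.43 ± 0.10, and Aire, a transcriptional regulator best known from the thymus, by -1.51 ± 0.11. Bhlhe40, a transcriptional repressor of the circadian clock, was at 33.4 RPKM in K1 and 16.4 RPKM in K3 on day 2 and at 8.98 and 6.75 RPKM on day 4, a change of -1.47 ± 0.15. The other 6 were Sept1, a septin, Lrrc2, Enox1, H2-M5 of the major histocompatibility complex, and the zinc finger genes Zfp534 and Zfp459, with changes between -1.72 and -1.39. H2-M5, Zfp534 and Zfp459 have close relatives in the genome, and how reads with several positions were handled is not given in the sources used here, so their values are uncertain. The libraries did not mark strand, so a gene and an antisense partner cannot be told apart.

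Most naive genes fell. Of 24 listed genes 23 were tested, 14 were lower and 0 higher, against 2.94% of all genes lower, and the median change was -0.92 beside 0.11 for all genes. Median-of-ratios scaling gave 16 lower, the fit without K1 gave 11, and the left-out K1 library in place of the one used gave 3 with a median of -0.65. Klf2, a Krüppel-like factor, was at 75.7 RPKM in K1 and 112 RPKM in K3 on day 2 and at 38.5 and 40.7 RPKM on day 4, and its change was -1.20 ± 0.13 (adjusted p = 0.0151). Esrrb, an orphan nuclear receptor that sustains self-renewal, was at 72.9 RPKM in K1 and 65.6 RPKM in K3 on day 2 and at 39.8 and 21.9 RPKM on day 4, a change of -1.20 ± 0.17 (adjusted p = 0.0185). In both genes each day 4 value lay below both day 2 values. Tcl1, a cofactor of the kinase Akt, was at 15.4 RPKM in K1 and 22.3 RPKM in K3 on day 2 and at 6.86 and 7.16 RPKM on day 4, a change of -1.29 ± 0.14. Jam2, an adhesion molecule, was at 28.8 RPKM in K1 and 17 RPKM in K3 on day 2 and at 10.6 and 6.96 RPKM on day 4, a change of -1.27 ± 0.11. Tfcp2l1 fell by 0.98 ± 0.12, Dppa5a, an RNA-binding protein, by 0.98 ± 0.14, Zfp42 (Rex1), a classical marker of mESC, by 0.80 ± 0.14, and Prdm14, which represses Fgf receptor signalling and DNA methylation, by 0.65 ± 0.14. Manba, an enzyme of the lysosome that this list and the lysosomal list share, fell by 1.23 ± 0.22. Klf4 was at 9.55 RPKM in K1 and 8.78 RPKM in K3 on day 2 and at 6.72 and 4.72 RPKM on day 4, and did not pass (change -0.61 ± 0.25, adjusted p = 0.159). The median was -0.69 in K1 and -1.10 in K3, and 17 of the 23 genes had the lower change in K3.

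Of 13 core pluripotency genes 4 were lower and 0 higher, beside 2.94% and 6.74% of all genes, with a median of -0.33. None of the 4 passed without K1 or with the left-out K1 library. Pou5f1 (Oct4), without which no pluripotent cell persists, was at 546 RPKM in K1 and 594 RPKM in K3 on day 2 and at 475 and 615 RPKM on day 4, values that overlap between the days (change -0.08 ± 0.11, adjusted p = 0.668). Sox2, its partner, was at 132 RPKM in K1 and 141 RPKM in K3 on day 2 and at 84.8 and 88.2 RPKM on day 4, and fell by 0.65 ± 0.08 (adjusted p = 0.0171). Nanog was at 84 RPKM in K1 and 105 RPKM in K3 on day 2 and at 64.6 and 78 RPKM on day 4, and fell by 0.40 ± 0.08 (adjusted p = 0.0379). Dppa2 and Dppa4, chromatin proteins that prime developmental genes, fell by 0.92 ± 0.12 and 0.73 ± 0.14. The left-out K1 library differed from the others in this group, with 208 RPKM of Nanog and 257 RPKM of Pou5f1. With it in place of the library used, the change of Nanog was 0.44 (adjusted p = 0.52), which did not pass. In that fit the changes of Prdm14, Dnmt3b and Lefty2 also had the other sign, at 0.01, -0.09 and 0.09, and did not pass.

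**Figure D2:**
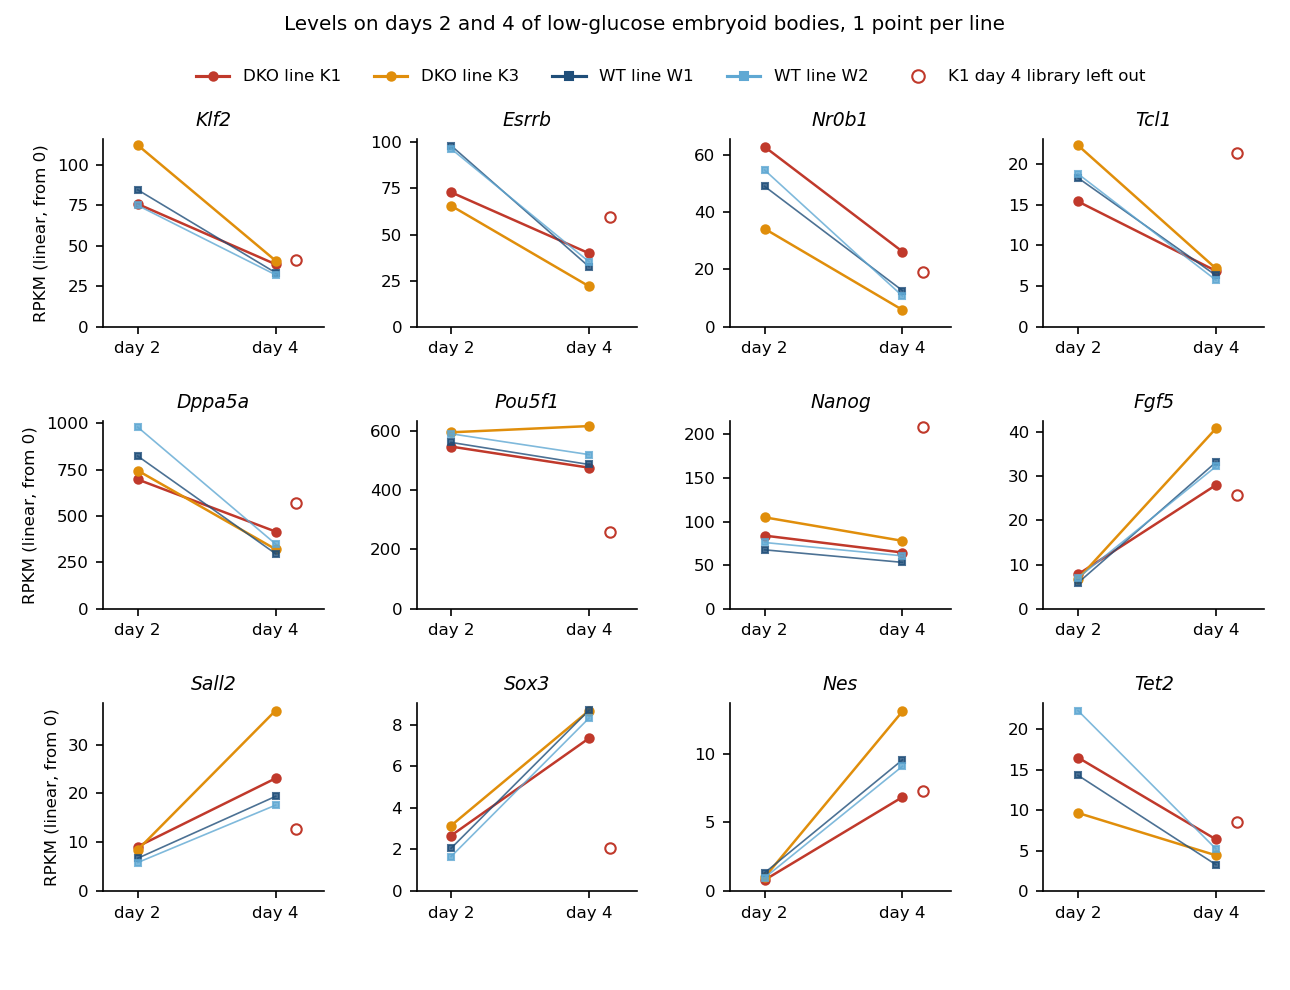
RPKM on a linear axis on days 2 and 4 for 12 genes in DKO lines K1 and K3 (circles) and WT lines W1 and W2 (squares, W1 day 4 as the mean of its 2 columns on the log scale), with the K1 day 4 library left out as an open circle. Klf2 ends at 38.5 and 40.7 RPKM in K1 and K3, Pou5f1 stays between 475 and 615 RPKM in both, and Fgf5 ends at 28 and 40.8 RPKM.

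Of 17 formative genes 7 were higher and 2 lower, beside 6.74% and 2.94% of all genes, with a median of 0.31. After median-of-ratios scaling 4 were higher and 2 lower, without K1 7 and 1, and with the left-out K1 library 1 and 0. Sall2, a zinc finger factor, was at 9.11 RPKM in K1 and 8.44 RPKM in K3 on day 2 and at 23.1 and 37 RPKM on day 4, a change of 1.63 ± 0.18 (adjusted p = 0.0156). Sox3, a close relative of Sox2, was at 2.67 RPKM in K1 and 3.15 RPKM in K3 on day 2 and at 7.36 and 8.69 RPKM on day 4, a change of 1.21 ± 0.12 (adjusted p = 0.0151). Both genes had separate ranges on the 2 days. Fst, which encodes the activin antagonist follistatin, was at 3.1 RPKM in K1 and 6.14 RPKM in K3 on day 2 and at 6.62 and 32.7 RPKM on day 4. It changed by 1.57 ± 0.30 (adjusted p = 0.0339), and the K3 value on day 4 was far above the other 3. Pou3f1 (Oct6) changed by 0.73 ± 0.16 and Dnmt3b, the de novo DNA methyltransferase, by 0.69 ± 0.15, and neither passed after median-of-ratios scaling (adjusted p = 0.0638 and 0.0777). Otx2, a head and epiblast factor, was at 77.9 RPKM in K1 and 34.7 RPKM in K3 on day 2 and at 63.8 and 54.9 RPKM on day 4, and the lines moved in opposite directions (change 0.18 ± 0.23, adjusted p = 0.617). Tcf15, which primes cells for differentiation, fell by 0.83 ± 0.18. In 16 of the 17 genes the change was larger in K3, and the medians were -0.06 in K1 and 0.70 in K3, so the list was above 0 on balance in K3 and not in K1.

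Enzymes that write and erase DNA methylation moved in both directions. Of 9 genes, 2 were higher and 3 lower, beside 6.74% and 2.94% of all genes. Median-of-ratios scaling gave 1 and 3, the fit without K1 1 and 2, and the left-out K1 library 0 and 1. Tet2, which oxidises methylcytosine, was at 16.5 RPKM in K1 and 9.65 RPKM in K3 on day 2 and at 6.38 and 4.41 RPKM on day 4, and fell by 1.11 ± 0.11 (adjusted p = 0.0151). Tet1 fell by 0.60 ± 0.10, and Dnmt3l, the cofactor of the de novo methyltransferases, was at 325 RPKM in K1 and 323 RPKM in K3 on day 2 and at 202 and 120 RPKM on day 4, and fell by 1.05 ± 0.18. Tet3 was at 0.831 RPKM in K1 and 0.602 RPKM in K3 on day 2 and at 2.02 and 1.76 RPKM on day 4, a change of 0.75 ± 0.14 (adjusted p = 0.0292). The order of the Tet genes on day 2, with Tet1 above Tet2 and Tet2 above Tet3, was kept on day 4 in RPKM, which is per length.

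In the list on epithelial to mesenchymal change, 8 of 18 genes tested were higher and 2 lower, beside 6.74% and 2.94% of all genes, with a median of 0.52. Median-of-ratios scaling gave 4 higher and 2 lower, the fit without K1 gave 2 and 0, and the left-out K1 library gave 0 of either. Those higher were mostly epithelial junction and keratin genes. Cldn7, a claudin of tight junctions, was at 7.84 RPKM in K1 and 16.2 RPKM in K3 on day 2 and at 26.3 and 30.4 RPKM on day 4, a change of 1.25 ± 0.19. Cldn6 was at 44.5 RPKM in K1 and 86.4 RPKM in K3 on day 2 and at 140 and 169 RPKM on day 4, a change of 1.29 ± 0.19 (adjusted p = 0.0207). Ocln, which encodes occludin, changed by 0.91 ± 0.12, and Cdh1 (E-cadherin) by 0.52 ± 0.09. Cdh1 did not pass after median-of-ratios scaling (adjusted p = 0.0516). Mmp2, a matrix protease, was at 4.31 RPKM in K1 and 5.75 RPKM in K3 on day 2 and at 9.38 and 16.5 RPKM on day 4, a change of 1.17 ± 0.14, and Zeb1, a repressor of Cdh1, fell by 0.77 ± 0.15. In the Notch list 5 of 11 genes tested were higher and 0 lower, beside 6.74% and 2.94% of all genes, with a median of 0.59. Median-of-ratios scaling gave 3 higher, and 0 were higher without K1 or with the left-out K1 library. Dll3, an inhibitory ligand, was at 0.783 RPKM in K1 and 1.31 RPKM in K3 on day 2 and at 2.94 and 4.06 RPKM on day 4, a change of 1.14 ± 0.15. The ligand Jag2 changed by 0.75 ± 0.11, the receptor Notch3 by 0.59 ± 0.12, the glycosyltransferase Lfng by 0.68 ± 0.14 and the target Hes1 by 0.60 ± 0.10. Dll1 was at 8.59 RPKM in K1 and 5.56 RPKM in K3 on day 2 and at 6.95 and 2.87 RPKM on day 4, and did not pass.

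Neural genes were mixed: of 10 tested, 2 were higher and 1 lower, beside 6.74% and 2.94% of all genes. The median of 0.02 became -0.10 after median-of-ratios scaling, and 1 was higher and 0 lower with the left-out K1 library. Beside Nes, Fabp7, a fatty acid binding protein of radial glia, was at 0 RPKM in K1 and 0.324 RPKM in K3 on day 2 and at 1.27 and 1.75 RPKM on day 4, a change of 1.12 ± 0.16. Stmn2, a microtubule protein of neurons, fell by 0.63 ± 0.09. Pax6 was at 4.12 RPKM in K1 and 3.44 RPKM in K3 on day 2 and at 2.63 and 2.49 RPKM on day 4. Sox1, an early neural marker, was at 1.29 RPKM in K1 and 0.729 RPKM in K3 on day 2 and at 0.728 and 0.393 RPKM on day 4, and neither of these 2 passed.

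Signals of the gastrulating embryo were measured by ligand, receptor and target. In the Nodal list 3 of 19 genes tested were higher and 2 lower, beside 6.74% and 2.94% of all genes, with a median of 0.01 on the RPKM scale and -0.13 after median-of-ratios scaling. The fit without K1 gave 1 higher and 0 lower, and the left-out K1 library gave 0 of either. Lefty1, a feedback inhibitor of Nodal, was at 38.9 RPKM in K1 and 95 RPKM in K3 on day 2 and at 13.9 and 54 RPKM on day 4, and fell by 1.11 ± 0.19 (adjusted p = 0.0246). Lefty2 was at 18.4 RPKM in K1 and 24.8 RPKM in K3 on day 2 and at 6.11 and 14.2 RPKM on day 4, and fell by 1.11 ± 0.17 (adjusted p = 0.021). Each line fell, although K3 on day 4 was above K1 on day 2 in Lefty1. Foxh1, the DNA-binding partner of Smad2, was at 27.2 RPKM in K1 and 38.5 RPKM in K3 on day 2 and at 46.4 and 57.4 RPKM on day 4, a change of 0.66 ± 0.09. Gdf1, a ligand that works with Nodal, changed by 0.70 ± 0.11, and Furin, a protease that activates such ligands, by 0.77 ± 0.14.

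In the FGF and ERK list 2 of 22 genes were higher and 4 lower, beside 6.74% and 2.94% of all genes, with a median of 0.09, or -0.04 after median-of-ratios scaling. The fit without K1 gave 2 higher and 2 lower, and the left-out K1 library gave 1 of each. Fgf4, the ligand of naive cells, was at 97.1 RPKM in K1 and 68.5 RPKM in K3 on day 2 and at 57.2 and 25.9 RPKM on day 4, and fell by 1.06 ± 0.15 (adjusted p = 0.0199), the reverse of Fgf5. Fgfr1, the main receptor of the epiblast, changed by 0.50 ± 0.09. The feedback inhibitors Spry4 and Spred1 fell by 0.66 ± 0.12 and 0.52 ± 0.10, and Dusp4, an ERK phosphatase, was at 9.24 RPKM in K1 and 9.77 RPKM in K3 on day 2 and at 6.75 and 4.96 RPKM on day 4, and fell by 0.63 ± 0.13 (adjusted p = 0.0391). Among 16 Wnt targets and effectors tested 1 was higher and 0 lower, beside 6.74% and 2.94% of all genes, and median-of-ratios scaling gave 1 of each. The higher gene was Amotl2, an angiomotin-like scaffold, at 5.66 RPKM in K1 and 7.59 RPKM in K3 on day 2 and at 17.5 and 18.5 RPKM on day 4 (change 1.33 ± 0.11). Axin2, the general Wnt target, was at 1.28 RPKM in K1 and 2.71 RPKM in K3 on day 2 and at 2 and 6.75 RPKM on day 4, and did not pass (change 0.73 ± 0.19, adjusted p = 0.0659). In the BMP list 0 of 12 genes tested passed limma's test at an adjusted p under 0.05, beside 9.67% of all genes. Id1 had an unadjusted p of 0.0141 in that test. Bmp4 was at 4.66 RPKM in K1 and 2.47 RPKM in K3 on day 2 and at 2.66 and 1.62 RPKM on day 4. Its target Id1 was at 2.72 RPKM in K1 and 4.48 RPKM in K3 on day 2 and at 7 and 10.8 RPKM on day 4 (change 1.11 ± 0.32, adjusted p = 0.0792). Grem1, a BMP antagonist, was at 5.02 RPKM in K1 and 6.33 RPKM in K3 on day 2 and at 4.45 and 8.19 RPKM on day 4, with overlapping values on the 2 days.

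Of 24 streak factors, 17 were too low to be tested, none of them above 2.17 RPKM in the 4 libraries. The 1 higher and 1 lower among the 7 tested were Foxh1 and Tcf15, beside 6.74% and 2.94% of all genes. T (Brachyury), which marks the streak, was at 0 RPKM in K1 and 0.09 RPKM in K3 on day 2 and at 0.251 and 2.16 RPKM on day 4. Mixl1 was at 0.148 RPKM in K1 and 0.241 RPKM in K3 on day 2 and at 0.251 and 0.509 RPKM on day 4, and Mesp1, the first factor of cardiac mesoderm, was listed at 0 in 3 of the libraries and at 0.049 RPKM in K3 on day 4. Eomes, which starts mesoderm and definitive endoderm, was at 2.71 RPKM in K1 and 3.4 RPKM in K3 on day 2 and at 3.53 and 15 RPKM on day 4, and did not pass (change 1.07 ± 0.40, adjusted p = 0.133). Fgf8 was at 0.337 RPKM in K1 and 2.39 RPKM in K3 on day 2 and at 0.957 and 21.3 RPKM on day 4, high in K3 on day 4 alone (change 1.63 ± 0.48, adjusted p = 0.0806). By day 8 T stood at 58.6 RPKM in K1 and 66.3 RPKM in K3, and on day 12 at 7.74 and 17.8 RPKM. Of 21 genes of blood and endothelium 6 were tested, and 1 was higher and 1 lower, beside 6.74% and 2.94% of all genes. Etv2, which opens the haemato-endothelial programme, was at 0.324 RPKM in K1 and 1.47 RPKM in K3 on day 2 and at 1.23 and 3.97 RPKM on day 4, a change of 0.88 ± 0.16, and Pecam1, an endothelial adhesion molecule that mESC also carry, fell by 0.83 ± 0.19. The embryonic globin gene Hbb-bh1 was at 0.087 RPKM in K3 on day 4 and listed at 0 in the other 3. The cardiac list had 2 of 16 genes at a level that could be tested, and the Hox and Cdx list 1 of 28.

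In endoderm genes the lines differed. In the list of endoderm factors 1 of 16 genes tested was higher, beside 6.74% of all genes. It was Cldn6, which epithelia in general also carry. Among 22 visceral endoderm genes tested, of 26 listed, 1 was higher, beside 6.74% of all genes. It was Lrp2 (megalin), an endocytic receptor, at 14.7 RPKM in K1 and 9.45 RPKM in K3 on day 2 and at 44.3 and 14.2 RPKM on day 4 (change 1.03 ± 0.23, adjusted p = 0.0451, or 0.0722 after median-of-ratios scaling). The change was larger in K1 than in K3 for each of the 22 tested, with medians of 1.44 and 0.07. Ttr, the thyroxine carrier, was at 0.231 RPKM in K1 and 0 RPKM in K3 on day 2 and at 12.1 and 0.131 RPKM on day 4. Dab2, an endocytic adaptor, was at 5.58 RPKM in K1 and 1.09 RPKM in K3 on day 2 and at 36 and 2.45 RPKM on day 4. Spink3, a protease inhibitor, was at 3.65 RPKM in K1 and 0.736 RPKM in K3 on day 2 and at 49.7 and 1.15 RPKM on day 4. None of these 3 passed (adjusted p = 0.187, 0.0542 and 0.128), with changes of 3.42, 2.49 and 3.45 in K1 and 0.18, 0.73 and 0.31 in K3. Sox17, a factor of definitive and primitive endoderm, was at 0.137 RPKM in K1 and 0.112 RPKM in K3 on day 2 and at 1.59 and 0.177 RPKM on day 4. Foxa2, which opens endodermal chromatin, was at 0.109 RPKM in K1 and 0.208 RPKM in K3 on day 2 and at 2.29 and 0.435 RPKM on day 4. Gata4, a factor of primitive endoderm, was at 1.1 RPKM in K1 and 0.67 RPKM in K3 on day 2 and at 8.15 and 1.36 RPKM on day 4. K1 on day 4 was the highest of the 4 libraries in each. Afp, a fetal serum protein, was listed at 0 in 3 of the libraries and at 0.555 RPKM in K1 on day 4. Apoe, a lipoprotein of mESC as well as endoderm, was at 458 RPKM in K1 and 442 RPKM in K3 on day 2 and at 359 and 185 RPKM on day 4, and did not pass. The summed level of the visceral endoderm list went from 518 to 620 RPKM in K1 and from 482 to 223 RPKM in K3. Apoe made up most of each sum, 458 and then 359 RPKM in K1 and 442 and then 185 RPKM in K3. The sums therefore hide the changes of the other members.

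The parietal endoderm and basement membrane list had 2 of 13 genes tested higher, Col4a1 and Fst, beside 6.74% of all genes. Its median was 1.48 in K1 against 0.32 in K3. Col4a1 was at 5.06 RPKM in K1 and 2.16 RPKM in K3 on day 2 and at 45.1 and 6.07 RPKM on day 4, so that its change of 2.05 ± 0.42 joined 2.93 in K1 with 1.16 in K3 (adjusted p = 0.0391, or 0.0505 after median-of-ratios scaling). Col4a2, encoded beside it, was at 3.18 RPKM in K1 and 1.18 RPKM in K3 on day 2 and at 27.6 and 2.31 RPKM on day 4, and did not pass. Lamb1, a laminin chain, was at 24.1 RPKM in K1 and 26.3 RPKM in K3 on day 2 and at 69 and 41.5 RPKM on day 4 (adjusted p = 0.0612). The left-out K1 library lay between the day 4 levels of the lines in some genes, with 20.4 RPKM of Col4a1, 5.75 RPKM of Ttr and 0.912 RPKM of Sox17. In others it lay above both lines, with 45.1 RPKM of Dab2 and 0.709 RPKM of Afp. With 1 library per line and day, the difference between K1 and K3 has no replicate check, and its part in the results was not tested. By day 8 Gata4 had reached 21.8 RPKM in K1 and 17.4 RPKM in K3, while Ttr was at 30.1 and 3.16 RPKM, and on day 12 at 56.9 and 35.6 RPKM.

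**Figure D3:**
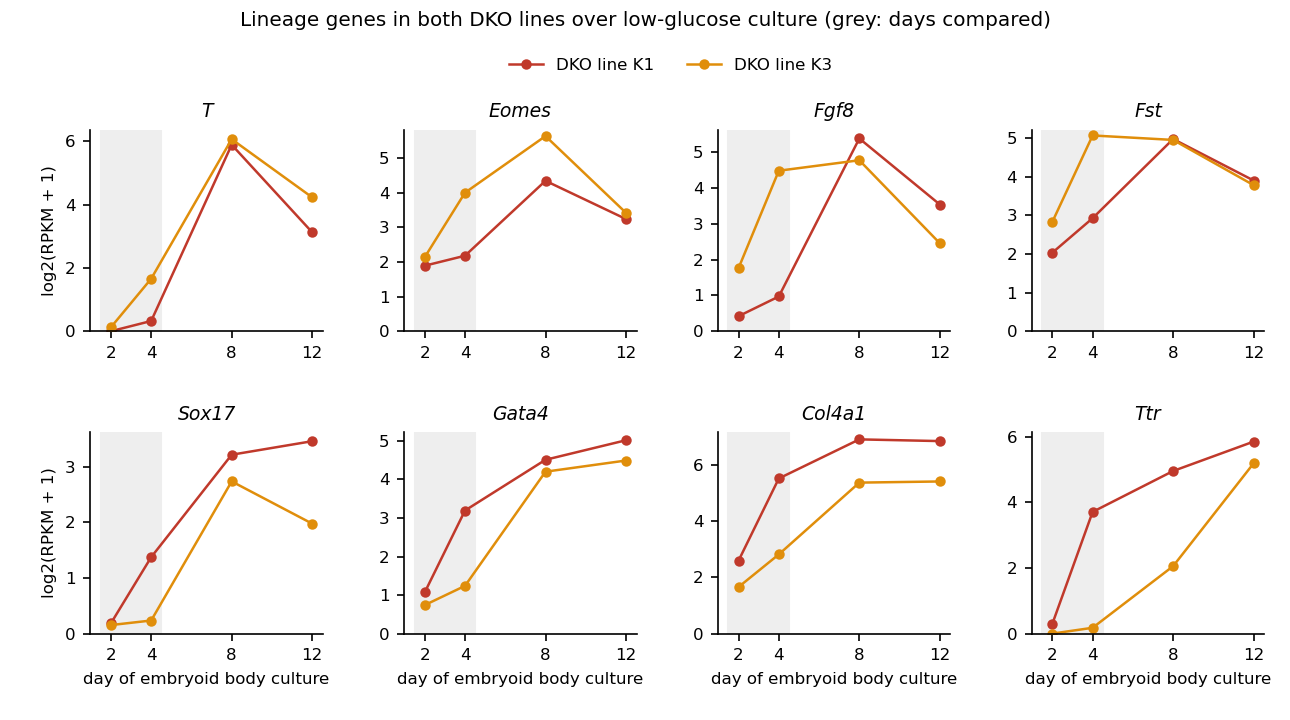
log2(RPKM + 1) of 8 lineage genes on days 2, 4, 8 and 12 of low-glucose culture in DKO lines K1 and K3, 1 library per point, with the compared days on grey. On day 4 K3 is above K1 in T, Eomes, Fgf8 and Fst and K1 is above K3 in Sox17, Gata4, Col4a1 and Ttr.

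Other cell types were checked by their markers. Of 16 feeder fibroblast markers 11 were tested, 3 were higher and 0 lower, namely Thy1, Dcn and Tagln, beside 6.74% of all genes higher. The fit without K1 gave 1 higher, and the left-out K1 library 0. Thy1, a surface glycoprotein, was at 2.76 RPKM in K1 and 4 RPKM in K3 on day 2 and at 5.68 and 8.26 RPKM on day 4. Dcn (decorin), a matrix proteoglycan, was at 4.25 RPKM in K1 and 1.27 RPKM in K3 on day 2 and at 8.16 and 3.07 RPKM on day 4. Tagln was at 0.712 RPKM in K1 and 1.48 RPKM in K3 on day 2 and at 2.75 and 16.6 RPKM on day 4, highest in K3 on day 4. The fibrillar collagen genes of fibroblasts were low throughout, since Col1a1 was at 1.06 RPKM in K1 and 2.07 RPKM in K3 on day 2 and at 1.85 and 3.04 RPKM on day 4, and Col1a2 was at 1 to 1.94 RPKM. The summed level of the list was 35.8 and 42.6 RPKM on day 2 and 55.8 and 73.4 RPKM on day 4 in K1 and K3, and the part of such cells in the rise of Tagln was not tested. Of 11 germ cell genes tested 0 were higher and 1 was lower (Prdm14), beside 6.74% and 2.94% of all genes. Among 4 trophoblast genes tested 0 passed, beside 9.67% of all genes.

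Of 17 tested genes that answer to p53, the damage and stress regulator, 5 were higher and 0 lower, beside 6.74% and 2.94% of all genes, with a median of 0.27. Median-of-ratios scaling gave 4 higher and 1 lower, the fit without K1 gave 2 and 0, and the left-out K1 library gave 0 of either. Perp, a desmosomal membrane protein, was at 2.79 RPKM in K1 and 7.7 RPKM in K3 on day 2 and at 9.36 and 21.4 RPKM on day 4, a change of 1.41 ± 0.12 (adjusted p = 0.0151). Btg2, which slows division, was at 5.27 RPKM in K1 and 8.78 RPKM in K3 on day 2 and at 15.3 and 25.8 RPKM on day 4, a change of 1.42 ± 0.14. Phlda3, which restrains Akt, changed by 1.13 ± 0.12, the kinase Plk2 by 0.81 ± 0.13 and the pro-apoptotic Bbc3 (Puma) by 0.57 ± 0.12. Cdkn1a (p21), the best known target, was at 22 RPKM in K1 and 37.7 RPKM in K3 on day 2 and at 35 and 48.2 RPKM on day 4, and did not pass (change 0.50 ± 0.13, adjusted p = 0.0638). In the cell cycle list 0 of 21 genes tested passed at an adjusted p under 0.05, beside 9.67% of all genes. Its medians were -0.01 in K1 and 0.35 in K3, and the change was larger in K3 in 18 of the 21. Mcm7, of the replicative helicase, was at 97.3 RPKM in K1 and 103 RPKM in K3 on day 2 and at 104 and 141 RPKM on day 4.

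Imprinted growth genes had 2 of 18 tested higher and 0 lower, beside 6.74% of all genes higher, and neither passed without K1 or with the left-out K1 library. Ndn (necdin) was at 9 RPKM in K1 and 6.39 RPKM in K3 on day 2 and at 13.7 and 10.7 RPKM on day 4. Igf2r, which clears Igf2, was at 10.9 RPKM in K1 and 10.6 RPKM in K3 on day 2 and at 20.1 and 15.1 RPKM on day 4 (adjusted p = 0.0476, or 0.0864 after median-of-ratios scaling). Igf2, the fetal growth factor, was at 0.945 RPKM in K1 and 2.26 RPKM in K3 on day 2 and at 3.31 and 3.3 RPKM on day 4, and did not pass (adjusted p = 0.108), and reached 356 and 548 RPKM on day 8. Mest and Peg10, imprinted genes of chromosome 6, differed between the lines on both days. Mest was at 3.31 RPKM in K1 and 0.361 RPKM in K3 on day 2 and at 4.89 and 0.468 RPKM on day 4. Peg10 was at 3.99 RPKM in K1 and 0.055 RPKM in K3 on day 2 and at 5.61 and 0.071 RPKM on day 4.

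In the lists of glycolytic, hypoxia and sterol genes each call was a fall, beside 2.94% of all genes lower and 6.74% higher. None of these calls passed with the left-out K1 library. Of 24 genes of glycolysis and glucose uptake 0 were higher and 2 lower, with 4 lower after median-of-ratios scaling. Pfkp, the platelet-type phosphofructokinase, was at 72.5 RPKM in K1 and 50.9 RPKM in K3 on day 2 and at 33.7 and 22.8 RPKM on day 4, and fell by 1.10 ± 0.08 (adjusted p = 0.0151), with both day 4 values below both day 2 values. Aldoc, an aldolase, fell by 0.50 ± 0.11. Hk2, a hexokinase, was at 37.8 RPKM in K1 and 31.4 RPKM in K3 on day 2 and at 26.5 and 28.4 RPKM on day 4. Pdk1, which keeps pyruvate out of the citric acid cycle, was at 77.7 RPKM in K1 and 70.4 RPKM in K3 on day 2 and at 47.6 and 44.5 RPKM on day 4, and neither of these 2 passed. Among 15 hypoxia targets tested 2 were lower and 0 higher. Bnip3, a mitophagy receptor, was at 70.4 RPKM in K1 and 68.1 RPKM in K3 on day 2 and at 28.5 and 48.1 RPKM on day 4. Kdm3a, a histone demethylase, was at 78.7 RPKM in K1 and 33.7 RPKM in K3 on day 2 and at 42.4 and 23.1 RPKM on day 4. Sterol and fatty acid genes had 2 of 21 lower and 0 higher. Insig1, which holds back sterol synthesis, was at 32.9 RPKM in K1 and 30.1 RPKM in K3 on day 2 and at 18.9 and 21 RPKM on day 4, and fell by 0.64 ± 0.10 (adjusted p = 0.0234). Scd1, a desaturase, fell by 0.60 ± 0.12. In the integrated stress response list 0 of 18 genes passed limma's test at an adjusted p under 0.05, beside 9.67% of all genes. The change was larger in K1 in all 18, with medians of 0.26 in K1 and -0.18 in K3. Trib3, a pseudokinase of that response, was at 22.4 RPKM in K1 and 16.5 RPKM in K3 on day 2 and at 24.8 and 6.72 RPKM on day 4. Arrdc4, which glucose induces along with Txnip, was at 1.08 RPKM in K1 and 0.618 RPKM in K3 on day 2 and at 1.29 and 1.89 RPKM on day 4, and at 21 RPKM in the library left out.

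Lysosomal genes were read by their regulators, hydrolases and membrane proteins. Tfeb was at 1.99 RPKM in K1 and 2.06 RPKM in K3 on day 2 and at 3.19 and 1.33 RPKM on day 4 (change 0.05 ± 0.25, adjusted p = 0.915), and the lines moved in opposite directions. Tfe3 was at 51.1 RPKM in K1 and 45.6 RPKM in K3 on day 2 and at 46.1 and 51.2 RPKM on day 4 (change 0.01 ± 0.10, adjusted p = 0.971). Of 34 lysosomal hydrolases 1 was higher and 2 were lower, beside 6.74% and 2.94% of all genes. In both directions together their share was near the 9.67% of all genes. The median was 0.19 against 0.11 for all genes. After median-of-ratios scaling it was 0.04, with 0 higher and 3 lower. Manba, a mannosidase and 1 of the 2 lower, was at 48.4 RPKM in K1 and 34.3 RPKM in K3 on day 2 and at 28.8 and 9.6 RPKM on day 4 (adjusted p = 0.0295). Smpd1, the acid sphingomyelinase, was at 4.07 RPKM in K1 and 4.36 RPKM in K3 on day 2 and at 7.8 and 6.45 RPKM on day 4 (change 0.64 ± 0.13, adjusted p = 0.0355, or 0.0683 after median-of-ratios scaling). The V-ATPase is the proton pump that acidifies the lysosome. Of 29 genes of the lysosomal membrane and the V-ATPase 0 passed at an adjusted p under 0.05, beside 9.67% of all genes. Their median was -0.08, or -0.23 after median-of-ratios scaling. Lamp1, the main glycoprotein of that membrane, was at 216 RPKM in K1 and 192 RPKM in K3 on day 2 and at 246 and 157 RPKM on day 4 (change -0.05 ± 0.14, adjusted p = 0.83). Ctsd (cathepsin D), a protease, was at 128 RPKM in K1 and 113 RPKM in K3 on day 2 and at 164 and 102 RPKM on day 4 (change 0.10 ± 0.15, adjusted p = 0.689). In the autophagy list 1 of 20 genes tested was higher and 1 lower, beside 6.74% and 2.94% of all genes. Median-of-ratios scaling gave 0 and 2, and the median of 0.04 became -0.09. Map1lc3a, an LC3 protein of the autophagosome, changed by 0.51 ± 0.10, and Fnip2, a partner of folliculin, by -0.51 ± 0.09. Of 6 AMPK subunit genes tested 0 passed, beside 9.67% of all genes. Prkab1, a scaffold subunit, was at 15 RPKM in K1 and 14.7 RPKM in K3 on day 2 and at 23.1 and 19.2 RPKM on day 4.

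Lamp1, Ctsd and Rragc, a Rag GTPase that brings mTORC1 to the lysosome, are shown by their promoters because each holds the CACGTG letters of the Tfeb family. The sequences are from RefSeq on GRCm38.p6, from 250 bases before to 50 bases after the annotated start, 5′ to 3′ on the strand of the gene, and capitals mark CACGTG.
Lamp1, chr8:13158911-13159210, plus strand: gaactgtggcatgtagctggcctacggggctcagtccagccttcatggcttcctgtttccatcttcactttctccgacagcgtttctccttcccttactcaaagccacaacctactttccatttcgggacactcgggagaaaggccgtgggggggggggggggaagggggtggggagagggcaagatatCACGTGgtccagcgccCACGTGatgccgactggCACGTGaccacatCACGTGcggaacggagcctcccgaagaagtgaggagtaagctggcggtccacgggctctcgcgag
Ctsd, chr7:142387778-142388077, minus strand: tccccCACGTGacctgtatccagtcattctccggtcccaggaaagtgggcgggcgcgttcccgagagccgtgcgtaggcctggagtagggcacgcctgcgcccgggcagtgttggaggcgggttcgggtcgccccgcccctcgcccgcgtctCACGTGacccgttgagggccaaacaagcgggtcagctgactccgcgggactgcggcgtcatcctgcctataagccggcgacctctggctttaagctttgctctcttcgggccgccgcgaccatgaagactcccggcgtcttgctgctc
Rragc, chr4:123917183-123917482, plus strand: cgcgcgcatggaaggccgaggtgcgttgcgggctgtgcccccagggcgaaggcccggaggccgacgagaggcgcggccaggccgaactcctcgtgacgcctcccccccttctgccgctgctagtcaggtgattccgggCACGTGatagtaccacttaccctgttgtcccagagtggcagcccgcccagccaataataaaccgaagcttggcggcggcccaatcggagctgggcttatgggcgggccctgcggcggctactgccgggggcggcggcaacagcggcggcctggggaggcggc
Lamp1 holds the letters 4 times within 61 bases before its start, Ctsd 2 times, at 245 and 98 bases before it, and Rragc 1 time, at 112 bases. CACGTG, which reads the same on either strand, occurred in 9 of 27 hydrolase promoters (33.3%) and in 6 of 23 promoters of membrane and V-ATPase genes (26.1%), against 10.6% of the 9258 promoters of tested genes that could be matched and 7.24% of all 27025 promoters. It occurred in 7.41% of promoters of genes called higher and 9.35% of those called lower. The TCF/LEF letters, searched on either strand as CTTTGAT with the variants that end otherwise as CTTTGAA, or else as CTTTGTT, occurred in 9.72% of promoters of genes called higher, 11.8% of those called lower and 9.03% of those tested. A match describes these windows and shows no binding.

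In the WT lines over the same days, 2059 genes were higher (16.5%) and 760 lower (6.08%). A total of 1003 genes were called in the same direction in both genotypes, which is 83% of the DKO calls and 35.6% of the WT calls. Of all genes 22.6% were called in WT. Both sets of calls rest on a shared estimate of the spread of each gene, so they are not independent. The changes of both genotypes had a Pearson r of 0.763 across genes. The test of the difference, DKO change minus WT change, called 0 genes with limma, with a lowest adjusted p of 0.228, and 935 genes (7.48%) had an unadjusted p under 0.05. Both DKO lines changed less than both WT lines in 18.9% of all genes and more in 20.8%. Dusp4 was the 1 gene called in opposite directions, since it was at 27 and 20.5 RPKM in W1 and W2 on day 2 and at 39.2, 37.2 and 30.3 RPKM on day 4 (WT change 0.52 ± 0.13, difference -1.14 ± 0.18, unadjusted p = 0.000861, adjusted p = 0.506). Grem1 went in WT from 3.06 and 3.26 RPKM to 0.32, 1.29 and 1.17 RPKM, whereas its DKO change was 0.09 ± 0.16 (difference 1.19 ± 0.23, adjusted p = 0.506).

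Among the lists, the lysosomal genes had the most members whose DKO changes lay below those of WT. In WT 17 of 34 hydrolases were higher and 2 lower, with a median of 0.62, and 16 of 29 membrane and V-ATPase genes were higher and 0 lower, with a median of 0.41. Of all genes 16.5% were higher and 6.08% lower in WT. Both DKO lines changed less than both WT lines in 20 of the 34 and 27 of the 29, beside 18.9% of all genes, and more in 0 of either list. The difference had an unadjusted p under 0.05 in 10 and 15 of them, beside 7.48% of all genes, and 0 passed after adjustment (lowest adjusted p = 0.506). Lamp1 went in WT from 281 and 240 RPKM to 434, 540 and 343 RPKM (difference -0.70 ± 0.20, adjusted p = 0.653). Rragc was at 33.3 RPKM in K1 and 33.2 RPKM in K3 on day 2 and at 30.2 and 26.1 RPKM on day 4 in DKO, and in WT it went from 44.2 and 43.1 RPKM to 60.4, 62 and 58.8 RPKM (difference -0.69 ± 0.13, adjusted p = 0.506). Within DKO, K1 lay nearer to WT than K3, with the larger change in K1 in 28 of 34 hydrolases and 27 of 29 membrane and V-ATPase genes. Ctsh, which visceral endoderm also makes and which was chosen after its values were seen, changed by 3.56 in K1 and 0.09 in K3. These lists were known from earlier results of these data to be of interest, and the counts are a description.

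**Figure D4:**
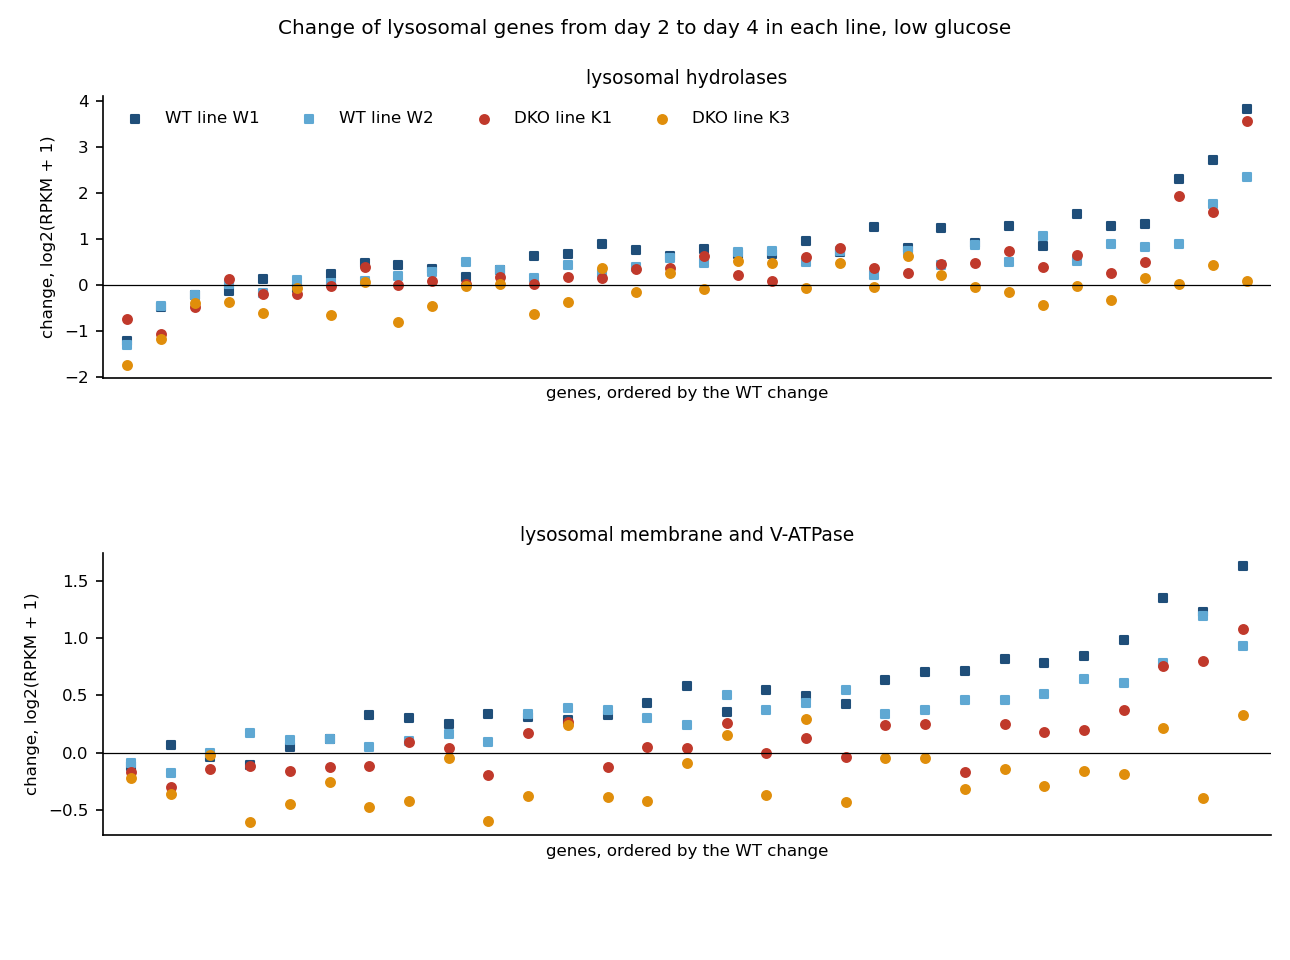
Change from day 2 to day 4 as log2(RPKM + 1) of 34 lysosomal hydrolases (top) and 29 lysosomal membrane and V-ATPase genes (bottom) in WT lines W1 and W2 (squares) and DKO lines K1 and K3 (circles), with 1 gene at each position along the x axis, ordered by the WT change. Both circles lie below both squares in 20 and 27 of the genes.

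Endoderm lists also had more calls in WT, 8 of 16 endoderm factors, 13 of 22 visceral and 8 of 13 parietal endoderm genes higher, against 1, 1 and 2 in DKO. Of all genes 16.5% were higher in WT and 6.74% in DKO. In the endoderm lists the difference was not common to both DKO lines. Both DKO changes lay below both WT changes in 3, 5 and 1 of these genes, beside 18.9% of all genes, and the median of K1 in each list was above that of W2. The WT lines differed as well, with medians of 2.43 in W1 and 1.13 in W2 for visceral endoderm genes. Naive genes had medians of -0.92 in DKO and -0.95 in WT, with 14 and 17 genes lower. In WT Klf2 changed by -1.26 ± 0.13 and Fgf5 by 2.18 ± 0.18, and the differences were 0.06 ± 0.18 and -0.11 ± 0.25 (adjusted p = 0.943 and 0.92). Neither difference passed, which does not show that the changes are alike.

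**Figure D5:**
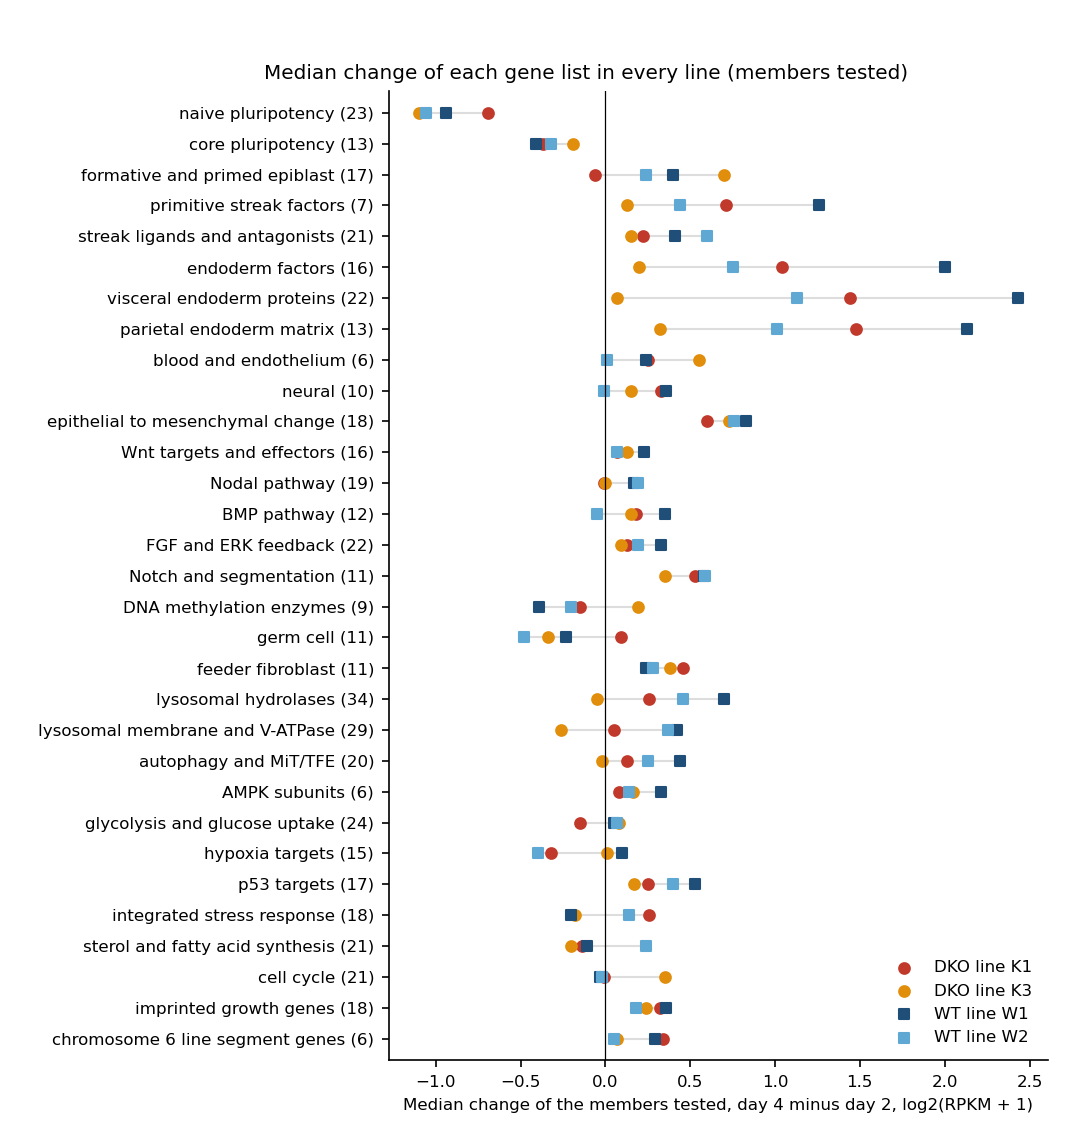
Median change from day 2 to day 4 of the members tested in each gene list, as log2(RPKM + 1), in DKO lines K1 and K3 (circles) and WT lines W1 and W2 (squares), with the number of members tested in brackets. Naive genes are low in all 4 lines, the 3 endoderm lists spread from K3 to W1, and the lysosomal lists have both DKO lines below both WT lines.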

How the data were processed

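RNA-seq of EBs was deposited by the authors as 1 table of RPKM values for 24225 genes in 42 libraries, with no counts. Per the submitters' processing notes, the tools named are FastQC 0.11.2, STAR 2.4.0k, HOMER, edgeR 3.6.8 and R 3.1.1, with the builds mm10 and GRCm38. Libraries were made with a kit that keeps no strand, per the labels' protocols. Step sizes of the low values (100% of them whole reads within a tolerance of 0.1 read, among genes of up to 5 reads and 200 to 1500 nt) gave depths of 10450000 to 25500000 reads over the 42 libraries. RPKM are not counts, so no count model was used.

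Values entered limma 3.58.1 in R 4.3.3 as log2(RPKM + 1), with a trended prior, line as a block and a day effect per genotype, over 8 values from 2 DKO and 2 WT lines. W1 day 4 was the mean of its 2 columns on the log scale, and a W2 day 4 column with high Txnip was left out by the same rule as in K1, a level above 5 RPKM. The test took the 12500 genes that reached 1 RPKM in 2 or more values and left out 11725, and p-values were adjusted over all genes tested by Benjamini-Hochberg. Residual degrees of freedom were 2. The same line underlies the days: K1 minus K3 on day 2 and on day 4 correlated with r = 0.527 across genes, and W1 minus W2 with r = 0.454. The fit was tested on simulated data.

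Named genes are the 12 largest rises and falls among genes past the threshold that averaged at least 1 RPKM over the 4 DKO libraries, moved the same way in both lines and had no predicted-gene or small-RNA symbol (1097 of 1209), up to 6 members of each list with the smallest p, and fixed markers. The members, lists and tests were chosen with earlier results of these data known. Alternatives were the pseudocounts 0.1 and 5, no filter, median-of-ratios and quantile scaling, no block, each line left out, the other K1 column and other sets of libraries. Results for some genes are not reported here.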

Additional observations from a re-analysis of the deposited data

Results flagged for a closer look

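Signal stood out in 2 day 4 low-glucose columns that the comparisons do not use. In the K1 library left out, Txnip was at 96.3 RPKM and Arrdc4, a second arrestin gene that glucose induces, at 21 RPKM. In the W2 library not used, Txnip was at 237 RPKM and Arrdc4 at 30.2 RPKM. Both libraries were left out for their Txnip level, so that level is the choice itself and no result. Arrdc4 is induced along with Txnip and is no separate support. Both genes respond to glucose in many cell types, and whether these 2 libraries carry the heading of another medium was not tested.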

How the results depend on the processing

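With 2 lines per genotype and 2 residual degrees of freedom, the number of calls depended on nearly every choice. The DKO count of 1209 became 168 without the line as a replicate block, 0 without a filter on low values (4767 genes at an unadjusted p under 0.05), 765 after quantile scaling, 42 with the left-out K1 column, 439 with both columns averaged, 467 from the 4 DKO libraries alone and 0 over DKO days 2 to 12 (2338 unadjusted). Leaving out 1 line gave 0 to 478. The WT count of 2819 became 957 without the block, 1398 without a filter, 570 with the left-out K1 column and 1039 with both columns averaged, and 0 to 3005 with 1 line left out. The difference between genotypes had 0 calls, 1 with a pseudocount of 5, and 0 to 5 with 1 line left out. Of the 1209 genes, 862 were called in the same direction after median-of-ratios scaling, 704 after quantile scaling and 168 without the block. Median-of-ratios scaling gave 495 higher and 653 lower, a share of 43.1% higher against 69.6% in RPKM and 46.9% after quantile scaling.

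Of 101 genes whose DKO change is given, 83 were called. With the left-out K1 column the sign turned for Prdm14 (0.01), Nanog (0.44), Dnmt3b (-0.09), Lefty2 (0.09), Tfe3 (-0.23), Ctsd (-0.13) and Grem1 (-0.26). With both columns averaged it turned for Nanog (0.02), Tfe3 (-0.11), Ctsd (-0.02) and Grem1 (-0.09). Median-of-ratios scaling turned Tfeb (-0.06), Tfe3 (-0.15), Ctsd (-0.05) and Grem1 (-0.04), and quantile scaling turned Tfeb (-0.14), Tfe3 (-0.05) and Grem1 (-0.06). Leaving out 1 line gave values from -0.20 to 0.05 in Pou5f1, from -0.28 to 0.65 in Otx2, from -0.39 to 0.49 in Tfeb, from -0.15 to 0.16 in Tfe3, from -0.29 to 0.18 in Lamp1, from -0.15 to 0.35 in Ctsd and from -0.14 to 0.33 in Grem1. The cause was not tested. In a lone line the spread is assumed to be that of the other lines.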
